A study of Mus musculus with 36 samples.

Results

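The 10 genes described here encode neuropeptide receptors: Npy1r, Npy2r and Npy5r for neuropeptide Y, Sstr1, Sstr2, Sstr3 and Sstr4 for somatostatin, Trhr for thyrotropin-releasing hormone, Nmbr for neuromedin B and Oxtr for oxytocin. They were taken by symbol from a fixed list, and all 10 were found among the 37315 gene identifiers of the count table. The rule names genes and uses no threshold on a measured value. The list was chosen with earlier results of these data known, so its counts of called receptors are a description and test no excess. Polyadenylated RNA was sequenced from 4 brain regions of wild-type BL-6 mice. MEC and LEC are the medial and lateral entorhinal cortex, which supply the hippocampus with most of its cortical input, and CA3 and CA1 are hippocampal fields. The mice were housed singly and handled for 3 minutes a day over 5 days, in every group. They then stayed in the home cage, were exposed to a context, or were given a foot shock, a group labelled fear. Tissue was taken 90 minutes later, with 3 libraries for each region and condition, 12 groups and 36 libraries in all. The labels give no age or sex, and they do not tie replicate numbers to mice, so the same mouse may have given several regions, and a p-value here speaks only of the spread between libraries.

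Neuropeptides are released from dense-core vesicles, mostly by interneurons in cortex and hippocampus and by long-range fibres from the hypothalamus, and act on G protein-coupled receptors. The neuropeptide Y and somatostatin receptors couple to Gi/o proteins, which lower cyclic AMP, open potassium channels and reduce transmitter release. Trhr, Nmbr and Oxtr couple mainly to Gq/11 proteins, which activate phospholipase C and raise the excitability of the cell that carries them.

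Library totals ran from 21871412 to 68974340 counts. Levels are given as CPM, the count of a gene scaled to the library total, and levels of different genes are compared only after division by exon length in kilobases. The region labels were checked with marker genes: 5 of 5 CA1 pyramidal markers were lower in CA3 than in CA1, 5 of 6 CA3 pyramidal markers were higher in CA3, and 8 of 9 cortical layer markers were higher in LEC and in MEC than in CA1. Dentate granule markers, which belong to a neighbouring cell layer, were present in the hippocampal dissections, at summed levels of 72.4 to 553 CPM in CA1 and 96.9 to 295 CPM in CA3, and at 44.0 to 90.4 CPM in LEC and MEC. On the first principal component, CA3 context 2 (-69.2) and CA3 home cage 2 (77) lay at opposite ends, with the other CA3 libraries between -47.1 and 23.0, and CA1 context 2 (-61.2) and CA1 home cage 2 (55.2) lay at opposite ends in CA1, with the others between -17.8 and 36.6. The calls for context in CA3 are given with and without these libraries, and so are the differences described for single receptors in CA1.

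The stretch before the transcription start is shown for 3 receptors on which results below turn. Npy2r and Oxtr were called higher in CA3 after context exposure, and Sstr2 after fear when the 4 regions were averaged. These calls depended on the processing, and were lost in 11 of 18 alternatives for Npy2r, 10 of 18 for Oxtr and 6 of 15 for Sstr2. The sequences are from RefSeq on GRCm38.p6, 5′ to 3′ on the strand of the gene. They are Npy2r at chr3:82548086-82548335 (minus strand), Oxtr at chr6:112489944-112490075 (minus strand) and Sstr2 at chr11:113619077-113619326 (plus strand). Capitals mark a full cyclic AMP response element.
Npy2r: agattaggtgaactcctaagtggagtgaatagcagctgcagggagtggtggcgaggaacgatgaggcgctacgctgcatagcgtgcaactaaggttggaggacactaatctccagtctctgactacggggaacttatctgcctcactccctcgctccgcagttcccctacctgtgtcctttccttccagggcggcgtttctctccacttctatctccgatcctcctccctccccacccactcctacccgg
Oxtr: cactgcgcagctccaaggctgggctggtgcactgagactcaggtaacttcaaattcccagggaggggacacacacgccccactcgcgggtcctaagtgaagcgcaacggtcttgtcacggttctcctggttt
Sstr2: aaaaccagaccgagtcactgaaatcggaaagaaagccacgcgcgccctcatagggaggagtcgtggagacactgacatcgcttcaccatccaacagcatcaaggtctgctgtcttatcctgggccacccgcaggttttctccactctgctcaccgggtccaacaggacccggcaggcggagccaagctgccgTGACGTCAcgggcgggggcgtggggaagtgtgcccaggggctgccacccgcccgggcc
The full cyclic AMP response element, TGACGTCA, is the site bound by CREB, a transcription factor that acts downstream of cyclic AMP and calcium. It was found at bases -58 to -51 from the start of Sstr2, and 1.79% of the 32851 promoter windows in the table held it on either strand. Its shorter core TGACG, which lies within it on each strand, was in 20.8% of windows. Sstr3 had that core at bases -9 to -5 of its window at chr15:78544296-78544595, outside the stretches shown. Its other window, at chr15:78541357-78541656, did not hold the core. The AP-1 site TGANTCA (7.81% of windows) was matched at bases -231 to -225 of Npy1r, and the EGR site GCGTGGGCG (0.612% of windows) was not matched in any of the 8 receptors that have a window in the table. These letters were not found in the Npy2r and Oxtr windows. A match describes the sequence only.

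The leading receptor per kilobase of exon differed between CA1, CA3 and the entorhinal cortex. In CA1, Sstr4 led with 44.9 ± 13.9 CPM per kilobase (SD, n = 9), which was 54.0% of the summed level of the 10 genes. In CA3, Npy2r led with 45.3 ± 9.41, or 47.3% of the sum, followed by Sstr4 with 24.3 ± 3.50. No receptor dominated the entorhinal cortex to that extent. In MEC, Npy1r held 24.4%, Sstr4 19.7% and Sstr2 16.9% of the sum, and in LEC Npy1r held 16.1%, Sstr4 15.8%, Sstr2 14.9% and Trhr 13.3%. The summed level of the 10 genes per kilobase was highest in CA3 with 95.0 ± 10.6, followed by CA1 with 81.8 ± 12.8, LEC with 70.8 ± 8 and MEC with 58.1 ± 6.45 (SD, n = 9).

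**Figure D1:**
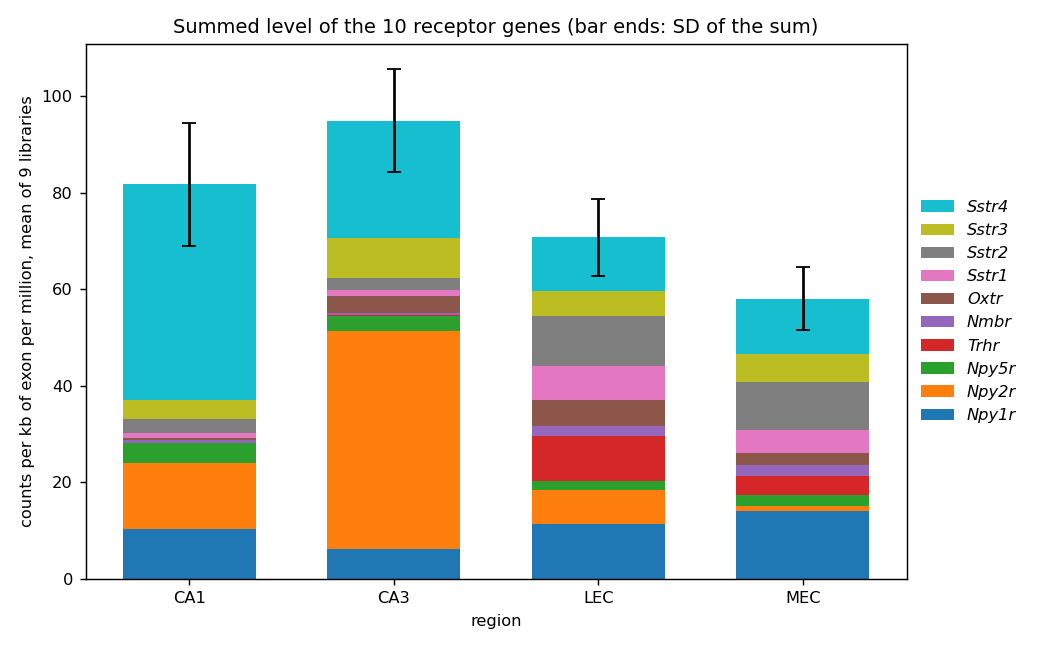
Mean level of each of the 10 receptor genes in CPM per kilobase of exon (vertical axis), stacked by region (horizontal axis, 9 libraries each). The bar on top of each stack is the SD of the summed level. Sstr4 fills most of the CA1 stack (44.9) and Npy2r is the largest block in CA3 (45.3), whereas the LEC and MEC stacks are split more evenly.

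Regions were compared in a fit of all 36 libraries with edgeR's quasi-likelihood test, averaged over conditions, and calls were made at 0.05 after Benjamini-Hochberg adjustment over the 17875 genes tested. All 10 receptors passed the filter on low counts. The test called 7 of 10 receptors between CA3 and CA1 (31.0% of all genes tested), 8 between LEC and CA1 (46.6%), 10 between MEC and CA1 (43.6%), 10 between LEC and CA3 (39.8%, and 20.2% higher in LEC), 10 between MEC and CA3 (38.4%) and 5 between MEC and LEC (17.4%). Since a region is a mixture of cells, fewer cells that express a receptor and less RNA per cell cannot be told apart here.

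Npy2r (ENSMUSG00000028004, chr3:82538383-82548084), a mainly presynaptic receptor that limits transmitter release, had the widest range among the neuropeptide Y receptors. Its level was 153 ± 31.8 CPM in CA3 (SD, n = 9, range 101 to 211), 45.9 ± 14.0 in CA1, 23.7 ± 10.3 in LEC and 3.93 ± 0.747 in MEC. The 9 MEC libraries, at 3.19 to 5.24 CPM, did not overlap with those of any other region. All neighbours in this order differed: CA3 was 1.81 ± 0.21 log2 units above CA1 (SE, adjusted p = 8.81e-08), LEC was 0.94 ± 0.21 below CA1 (log2 difference -0.94, adjusted p = 0.000452) and MEC against LEC stood at -2.62 ± 0.23 (adjusted p = 2.72e-09). Between MEC and CA3 the log2 difference was -5.37 ± 0.25, a 41.4-fold lower level in MEC.

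Npy1r (ENSMUSG00000036437, chr8:66697192-66706792), the mainly postsynaptic receptor linked to the calming action of neuropeptide Y, had the reverse order of means, with 48.5 ± 2.83 CPM in MEC, 39.0 ± 2.79 in LEC, 35.8 ± 11.2 in CA1 and 21.0 ± 2.86 in CA3 (SD, n = 9). MEC exceeded LEC by 0.29 ± 0.09 log2 units (adjusted p = 0.0191), LEC and CA1 did not differ beyond their spread (0.18 ± 0.09, adjusted p = 0.0987), and CA3 lay below CA1 (-0.65 ± 0.09, adjusted p = 7.06e-07). Npy5r (ENSMUSG00000044014, chr8:66679965-66688128), the receptor best known for the feeding response to neuropeptide Y, was below the other two per kilobase in CA1 (4.11), CA3 (3.05) and LEC (1.87). It had 10.5 ± 2.22 CPM in CA1, 7.80 ± 1.37 in CA3, 5.83 ± 1.06 in MEC and 4.78 ± 1.10 in LEC. Its entorhinal levels did not differ beyond their spread (MEC against LEC 0.27 ± 0.14, adjusted p = 0.198), and CA3 was below CA1 by a small margin (-0.36 ± 0.13, adjusted p = 0.0385). Npy1r and Npy5r lie head to head on chromosome 8, with 9064 bases between their starts. Their 12 group means of log2 CPM had a negative correlation (Pearson r -0.46, a description over groups that share regions), although both genes were lower in CA3 than in CA1.

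Sstr4 (ENSMUSG00000037014, chr2:148395344-148396767), a somatostatin receptor known from hippocampal pyramidal cells, had 63.9 ± 19.9 CPM in CA1 and a lower 34.6 ± 4.99 in CA3 (log2 difference -0.80 ± 0.13, adjusted p = 8.97e-06). LEC had 15.9 ± 3.05 CPM and MEC 16.4 ± 2.99, which did not differ (0.01 ± 0.13, adjusted p = 0.973), and MEC was 3.92-fold below CA1. Sstr3 (ENSMUSG00000044933, chr15:78537008-78544685), the receptor of the neuronal primary cilium, was highest in CA3 with 36 ± 5.77 CPM, against 25.3 ± 4.87 in MEC, 21.7 ± 3.39 in LEC and 17.1 ± 4.59 in CA1. The CA3 level exceeded the CA1 level by 1.13 ± 0.15 log2 units (adjusted p = 5.57e-07). MEC against LEC (0.19 ± 0.15, adjusted p = 0.434) and LEC against CA1 (0.33 ± 0.15, adjusted p = 0.0679) were within the spread.

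Sstr1 and Sstr2 were higher in both entorhinal areas than in both hippocampal fields, the opposite of Sstr4. Sstr1 (ENSMUSG00000035431, chr12:58211772-58214444) had 14.7 ± 5.20 CPM in LEC, 9.97 ± 2.17 in MEC, 2.57 ± 1.02 in CA3 and 2.35 ± 0.688 in CA1, and LEC exceeded CA1 by 2.64 ± 0.19 log2 units (adjusted p = 2.42e-13). Sstr2 (ENSMUSG00000047904, chr11:113619342-113626028), a widely expressed postsynaptic somatostatin receptor, had 22.4 ± 6.06 CPM in LEC, 21.0 ± 3.62 in MEC, 6.04 ± 2.86 in CA1 and 5.16 ± 1.29 in CA3. LEC exceeded CA3 by 2.04 ± 0.19 log2 units (adjusted p = 3.34e-10), while MEC and LEC did not differ beyond their spread (-0.09 ± 0.18, adjusted p = 0.801), nor did CA3 and CA1 (-0.10 ± 0.19, adjusted p = 0.730).

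Trhr (ENSMUSG00000038760, chr15:44196135-44235912) was the receptor with the largest difference between regions. It stood at 38.0 ± 12.3 CPM in LEC, 15.6 ± 7.02 in MEC, 1.01 ± 0.588 in CA3 and 0.342 ± 0.215 in CA1 (SD, n = 9). LEC exceeded CA1 by 6.79 ± 0.27 log2 units, or 111-fold (adjusted p = 2.72e-18), and MEC was 2.73-fold below LEC (-1.45 ± 0.20, adjusted p = 2.36e-06). CA3 exceeded CA1 by 1.38 ± 0.32 (adjusted p = 0.00142), at levels near the detection limit in both.

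Oxtr (ENSMUSG00000049112, chr6:112473683-112489943), known in hippocampus from CA2 and CA3 pyramidal cells and interneurons, had 25.6 ± 5.47 CPM in LEC, 16.9 ± 6.33 in CA3, 11.9 ± 2.35 in MEC and 1.82 ± 0.939 in CA1. CA3 exceeded CA1 by 3.33 ± 0.18 log2 units, or 10.1-fold (adjusted p = 1.71e-14), and every neighbouring pair in the order differed: LEC against CA3 by 0.58 ± 0.16 (adjusted p = 0.00292) and MEC against CA3 by -0.57 ± 0.16 (adjusted p = 0.00419). Nmbr (ENSMUSG00000019865, chr10:14705591-14770850), a bombesin-family receptor, was low throughout, with 7 ± 3.58 CPM in MEC, 6.34 ± 2.10 in LEC, 1.69 ± 0.464 in CA1 and 1.35 ± 0.564 in CA3. MEC exceeded CA3 by 2.17 ± 0.24 (adjusted p = 5.30e-09), and the entorhinal areas did not differ beyond their spread (-0.04 ± 0.22, adjusted p = 0.925), nor did the hippocampal fields (-0.32 ± 0.24, adjusted p = 0.342). The annotated antisense gene B230364G03Rik overlaps Nmbr exons and no source used here gives the strand setting of the counting, so the counts of Nmbr may include reads of that gene.

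**Figure D2:**
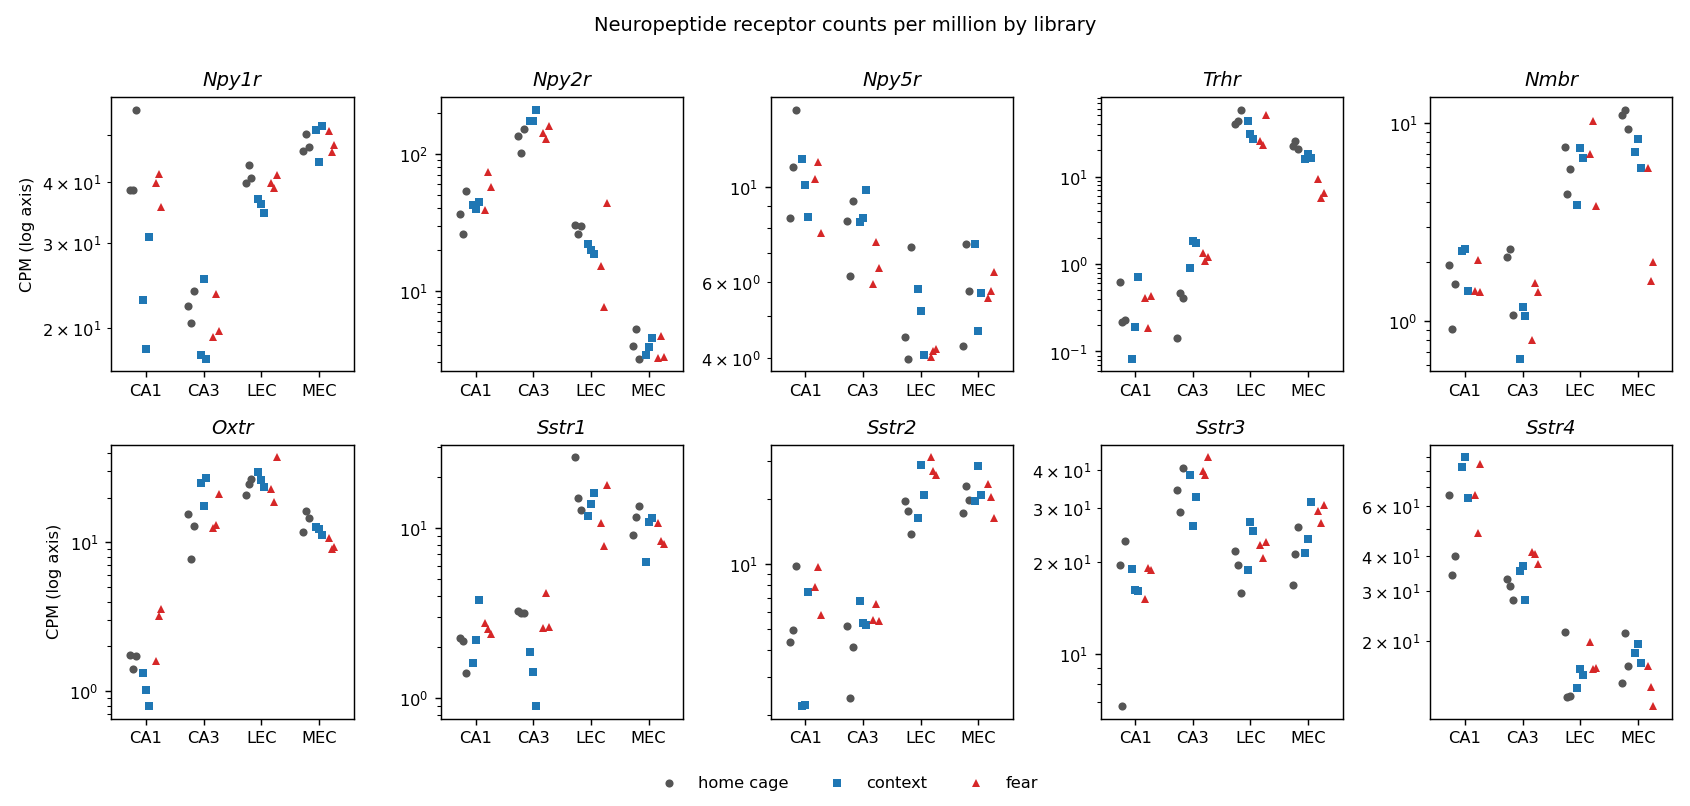
CPM of the 10 receptor genes (vertical axes, log scale, each with its own range) in CA1, CA3, LEC and MEC. Each point is 1 library, with circles for home cage, squares for context and triangles for fear, 3 libraries in each group. Npy2r drops from 101 to 211 in CA3 to under 6 in MEC, and Trhr rises from under 2 in CA1 and CA3 to over 20 in LEC.

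Of the 10 ligand genes listed, 6 passed the filter. None of the 6 was called between CA3 and CA1, and 2 were called between MEC and LEC, both lower in MEC. Sst, the somatostatin precursor of interneurons, had 68.0 ± 29.2 CPM in LEC, 65.2 ± 25.1 in CA1, 55.8 ± 11.9 in MEC and 44.2 ± 27.8 in CA3, and Npy had 29.8 ± 4.30, 32.3 ± 6.18, 18.0 ± 4.37 and 25.4 ± 7.97 in the same order. Trh was mostly a transcript of LEC: its 9 LEC libraries held 0.315 to 60.4 CPM, against at most 2.41 in MEC, 0.984 in CA1 and 0.965 in CA3. Nmb, the ligand of Nmbr, had 1.49 ± 0.543 CPM in MEC and 2.84 ± 1.23 in CA1. Oxt, the oxytocin precursor, did not exceed 0.0621 CPM in any library, and Avp, the related vasopressin precursor, did not exceed 0.218 CPM.

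In MEC, Trhr, Nmbr and Oxtr were called lower after fear than in the home cage, and none of the 10 receptors was called higher. In this comparison 9.56% of the 16314 genes tested were called, 3.88% lower and 5.68% higher. The 3 conditions of a region were fitted together, so context and fear are both compared with the same 3 home cage libraries.

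Trhr had 22.1, 25.7 and 20.8 CPM in the MEC home cage libraries, 15.9, 17.9 and 16.4 after context and 9.40, 5.73 and 6.52 after fear. All 3 groups were separate: every context library lay below every home cage library, and every fear library lay below every context library. The fall after fear was 3.07-fold (log2 difference -1.62 ± 0.17, SE, adjusted p = 0.000227), and it was called in 16 of 17 alternatives. Fear against context gave -1.22 ± 0.17 (adjusted p = 0.0712 with edgeR), and context against home cage -0.41 ± 0.16 (adjusted p = 0.250), neither of which passed. The fear against context difference passed with DESeq2 (adjusted p = 7.55e-08) and without the filter on low counts (8.83e-07), but not with GC and length offsets (-1.01, adjusted p = 0.0841) or with oligodendrocyte markers as a covariate (-1.13, 0.325).

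Nmbr followed the same order of means. It had 11, 11.7 and 9.35 CPM in the home cage, 7.14, 8.33 and 5.93 after context and 5.95, 1.60 and 1.98 after fear, so that fear 1 lay within the context range and the other fear libraries far below it. The fall from home cage to fear was 3.29-fold (log2 difference -1.72 ± 0.37, adjusted p = 0.0152). It missed the threshold without fear 2 (-1.40, adjusted p = 0.0508), without fear 3 (-1.46, 0.0703) and without the filter on low counts (0.0813), and the caution on antisense reads applies to these values.

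Oxtr changed least of the 3. Its values were 11.7, 16.3 and 14.5 CPM in the home cage, 12.7, 12.2 and 11.2 after context and 10.7, 8.98 and 9.29 after fear, with every fear library below every other. The fall against home cage was 1.42-fold (-0.51 ± 0.15, adjusted p = 0.0419), and it missed the threshold without any context library, any fear library or home cage 2, with adjusted p up to 0.163.

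Among the Gi/o-coupled receptors of MEC, Sstr3 came closest to a change in the other direction. It had 16.8, 21.3 and 26.0 CPM in the home cage, 21.4, 23.7 and 31.3 after context and 29.4, 26.8 and 30.6 after fear, and every fear library lay above every home cage library (log2 difference 0.47 ± 0.16, adjusted p = 0.0766). It passed with DESeq2 (adjusted p = 0.0457), without the filter on low counts (0.0249), with the replicate number as a block (0.00697) and without home cage 3 (0.00682). It did not pass with GC and length offsets (0.25, adjusted p = 0.111) or with oligodendrocyte markers as a covariate (0.78, 0.213). Npy1r was nearly level in MEC, at 46.4, 50.3 and 47.2 CPM in the home cage and 51.0, 46.2 and 47.6 after fear (0.05 ± 0.10), and Npy2r, Npy5r, Sstr1, Sstr2 and Sstr4 had differences between -0.29 and 0.07, none of which passed. Non-overlapping groups were found for 4 of 10 receptors between fear and home cage in MEC (31.4% of all genes) and for Trhr, Oxtr and Sstr4 between fear and context (24.5%).

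Oligodendrocyte markers moved with the same comparison. Their summed level was 2470, 1770 and 1710 CPM in the MEC home cage libraries, 2580, 2480 and 2880 after context and 2540, 3520 and 3290 after fear, and 6 of 9 markers were called higher after fear, with a median log2 difference of 0.72 against -0.01 for all genes. No marker of the list was at 0. Of the cortical layer markers, 1 of 9 was called higher and 2 lower, with a median of -0.34, and 3 of 9 endothelial markers were called higher. Single markers of neighbouring tissue were called lower. They were Dlk1 of 5 amygdala and piriform markers (-2.55 ± 0.55), Nts of 3 subiculum markers (-2.33 ± 0.49) and Penk of 6 striatal markers (-1.50 ± 0.33). The medians of these lists were 0.02, 0.07 and 0.11. The subiculum marker Slc17a6 was called higher (0.35 ± 0.10), as were 3 of 5 CA3 and 1 of 5 CA1 pyramidal markers. With the mean oligodendrocyte marker level as a covariate, the fear against home cage difference was -1.26 for Trhr (adjusted p = 0.0671), -0.93 for Nmbr (0.345) and -0.06 for Oxtr (0.913), and none of the 10 receptors was called. The SE of the Trhr difference widened from 0.17 to 0.28 in that fit. The share of all genes called with the covariate is not given here, so the missing calls do not speak of the receptors alone. The part of tissue composition in the fall of these receptors was not tested beyond this fit.

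**Figure D3:**
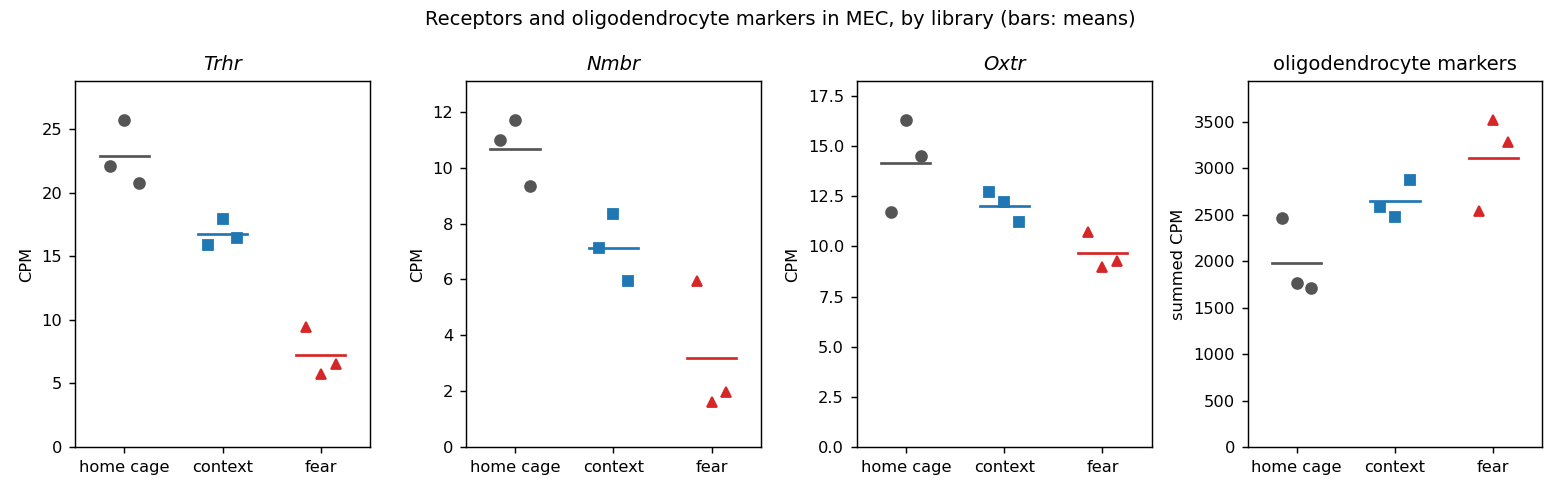
CPM of Trhr, Nmbr and Oxtr and the summed CPM of 9 oligodendrocyte markers (vertical axes, from 0) in the 9 MEC libraries by condition. Points are libraries and bars are group means of 3. Trhr falls from 20.8 to 25.7 in home cage to 5.73 to 9.40 after fear, and the oligodendrocyte markers are higher after fear (2540 to 3520) than in home cage (1710 to 2470).

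Of 30 other neuropeptide receptors tested in MEC, 6 were called higher after fear and 2 lower, with a median log2 difference of 0.08. The rises with the smallest p were those of Ntsr1, a neurotensin receptor (0.88 ± 0.16, adjusted p = 0.00638), Gpr83 (0.63 ± 0.13, 0.0120), Cckbr, the main cholecystokinin receptor of cortex (0.59 ± 0.12, 0.0121), and Hcrtr1, an orexin receptor (1.00 ± 0.23, 0.0176). Ntsr1 rose from 9.95 to 13.9 CPM in the home cage to 19.9 to 27.0 after fear, and Cckbr from 29.1 to 30.3 CPM to 37.1 to 52.2. The 2 that fell were Tacr3, a neurokinin receptor (-1.06 ± 0.25, adjusted p = 0.0201), and Npsr1, the neuropeptide S receptor (-1.16 ± 0.34, 0.0464), named here after their values were seen. Among 16 G proteins and effectors, Gnao1, the alpha subunit of Go (0.39 ± 0.09, adjusted p = 0.0180), and Plcb1, a phospholipase C downstream of Gq (0.36 ± 0.09, 0.0199), were called higher after fear, and no member was called lower. None of the 6 ligands tested passed in MEC.

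Context exposure alone gave no called receptor in MEC, where 0.570% of genes were called, 0.497% higher and 0.0736% lower. The lower values of Trhr and Nmbr after context, without overlap with the home cage, stand against 19.2% of genes whose groups did not overlap. Same-numbered home cage and context libraries of MEC deviated together, and 667 genes, with that number as a block, and none of the 10 receptors were called.

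In CA3, context exposure went with higher Trhr, Oxtr and Npy2r and lower Sstr1 than in the home cage. These were 4 of 10 receptors, in a comparison where 13.9% of the 16145 genes tested were called, 5.77% higher and 8.13% lower. All 4 lay close to the threshold, since the smallest adjusted p of any gene in this comparison was 0.045.

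Trhr had 0.141, 0.462 and 0.408 CPM in the CA3 home cage libraries, 0.899, 1.83 and 1.72 after context and 1.35, 1.08 and 1.20 after fear, from 4 to 45 counts a library. Home cage did not overlap with either other group. The rise after context was 4.79-fold (log2 difference 2.26 ± 0.52, adjusted p = 0.0450), and the difference after fear was 1.94 ± 0.52 (adjusted p = 0.150), at levels that remained far under those of LEC and MEC.

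Oxtr had 15.5, 7.76 and 12.8 CPM in the home cage, 25, 17.6 and 27 after context and 12.4, 13.1 and 21.0 after fear. The context libraries lay above all home cage libraries, and the fear libraries overlapped with both groups. The rise after context was 2.08-fold (1.06 ± 0.30, adjusted p = 0.0459), and the difference after fear was 0.47 ± 0.29 (adjusted p = 0.396).

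Npy2r had 136, 101 and 153 CPM in the home cage, 175, 174 and 211 after context and 142, 128 and 161 after fear. Context was above both other groups without overlap. Its rise after context was 1.56-fold (0.64 ± 0.19, adjusted p = 0.0469), and fear against home cage gave 0.24 ± 0.19 (adjusted p = 0.491).

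Sstr1 fell 2.10-fold after context (-1.07 ± 0.32, adjusted p = 0.0486). Its values were 3.28, 3.15 and 3.17 CPM in the home cage, 1.87, 1.42 and 0.900 after context and 2.58, 4.14 and 2.61 after fear, so that the context libraries were below all others and fear gave 0.05 ± 0.31 against home cage (adjusted p = 0.952).

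None of these 4 receptors was called with offsets for GC content and exon length. The log2 difference was then 1.90 for Trhr (adjusted p = 0.0533), 1.20 for Oxtr (0.0539), 0.40 for Npy2r (0.150) and -0.26 for Sstr1 (0.670), whose exons are 58.7% GC. That fit called Sstr4 instead (1.33, adjusted p = 0.0489), which stood at 0.24 without the offsets (adjusted p = 0.230).

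Trhr, Oxtr and Npy2r each missed the threshold without context 2, context 3, home cage 1, home cage 2 or any fear library, and Sstr1 also without home cage 3. None of the 4 calls held when both CA3 context 2 and CA3 home cage 2 were left out, with log2 differences of 2.32 for Trhr, 0.98 for Oxtr, 0.52 for Npy2r and -1.12 for Sstr1 and an adjusted p of 0.293 for each. With dentate granule markers as a covariate the differences were 2.53, 0.67, 0.52 and -0.96, and again none was called. The share of all genes called in that fit is not given here. Blood markers were lower in these context libraries, with 4 of 5 called, as were 3 of 9 microglial markers. CA3 home cage 2 held 13700 CPM of oligodendrocyte markers, against 5520 to 8990 CPM in the other CA3 libraries. It was the lowest CA3 library in Npy2r and Oxtr, but not in Trhr, and lay at neither end in Sstr1. The part of blood, microglial and oligodendrocyte markers in the result was not tested.

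Of the other CA3 receptors, Sstr2 had 5.19, 2.39 and 4.14 CPM in the home cage, 6.73, 5.33 and 5.25 after context and 5.50, 6.53 and 5.43 after fear, without overlap between home cage and the others (0.67 ± 0.28 after context, adjusted p = 0.105). Sstr4 went from 33.1, 31.2 and 27.8 CPM to 41.2, 40.7 and 37.5 after fear (0.47 ± 0.14, adjusted p = 0.162). Groups did not overlap for 5 of 10 receptors between context and home cage (33.1% of genes), for Trhr, Sstr2 and Sstr4 between fear and home cage (28.7%) and for 5 between fear and context (27.8%). The test called 0 of 10 receptors between fear and home cage, where 1 gene of 16145 was called (0.00619%) and 3047 had an unadjusted p under 0.05. Fear against context likewise gave 0 called genes with edgeR, with 3785 at an unadjusted p under 0.05, while DESeq2 called Sstr1 there (1.13, adjusted p = 0.0370).

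In the pathway lists, 4 of 15 G proteins and effectors rose in CA3 after context and 2 fell. Plcb1 (0.91 ± 0.23, adjusted p = 0.0450), Gnai3 (0.56 ± 0.14, 0.0450) and Gnaq (0.82 ± 0.22, 0.0450), which encodes the alpha subunit of Gq, were among the rises, and Gnai2, another Gi alpha subunit, fell (-0.67 ± 0.18, 0.0450). Of 26 other neuropeptide receptors, Crhr1, the corticotropin-releasing hormone receptor (-0.85 ± 0.25, 0.0476), and Npffr1 (-2.48 ± 0.75, 0.0483) were called lower and none was called higher. None of the 5 ligands tested passed.

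In CA1, edgeR called no gene in any of the 3 comparisons. At an unadjusted p under 0.05 there were 3449 genes between context and home cage, 3553 between fear and home cage and 918 between fear and context. Npy1r had the lowest p of the receptors. It had 38.5, 38.6 and 56.4 CPM in the home cage, 22.8, 18.1 and 30.8 after context and 39.9, 41.6 and 35.6 after fear, and the context libraries lay below all others. Context against home cage gave -0.82 ± 0.18 (adjusted p = 0.104 with edgeR), which passed in the fit of all 36 libraries (-0.81, adjusted p = 0.00535) and with DESeq2 (-0.83, 0.00747).

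Sstr4, the leading receptor of CA1, had 65.8, 34.1 and 40.1 CPM in the home cage, 82.7, 89.7 and 64.4 after context and 65.8, 48.1 and 84.5 after fear. Home cage 1 overlapped with context 3, and the difference after context was 0.83 ± 0.29 (adjusted p = 0.154 with edgeR, 0.0398 with DESeq2). Sstr2 had 4.38, 4.98 and 9.76 CPM in the home cage, 2.20, 2.23 and 7.42 after context and 7.87, 9.66 and 5.83 after fear, a spread within groups that left -0.63 ± 0.47 for context (adjusted p = 0.457).

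Dentate granule markers varied between the same CA1 libraries. Their summed level was 267, 388 and 553 CPM in the home cage, 103, 72.4 and 398 after context and 481, 484 and 320 after fear, with none of the 6 markers at 0. The context libraries 1 and 2, lowest in these markers, were also the lowest of the 9 in Npy1r and Sstr2 and the highest in Sstr4 along with fear 3, and home cage 3, highest in the markers, was the highest in Npy1r and Sstr2. With the markers as a covariate, context against home cage was -0.40 for Npy1r (adjusted p = 0.649), 0.38 for Sstr4 (0.726) and 0.31 for Sstr2 (0.821). Without CA1 context 2 and home cage 2, it was -0.76 for Npy1r (adjusted p = 0.550), 0.53 for Sstr4 (0.632) and -0.51 for Sstr2 (0.778). CA1 pyramidal markers summed to 1280, 561 and 664 CPM in the home cage and 1580, 1520 and 1190 after context. After fear they summed to 1220, 691 and 1420 CPM. Home cage 2, home cage 3 and fear 2 were lowest both in these markers and in Sstr4. Context 1, context 2 and fear 3 were highest in both. The part of tissue composition in these differences was not tested further.

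**Figure D4:**
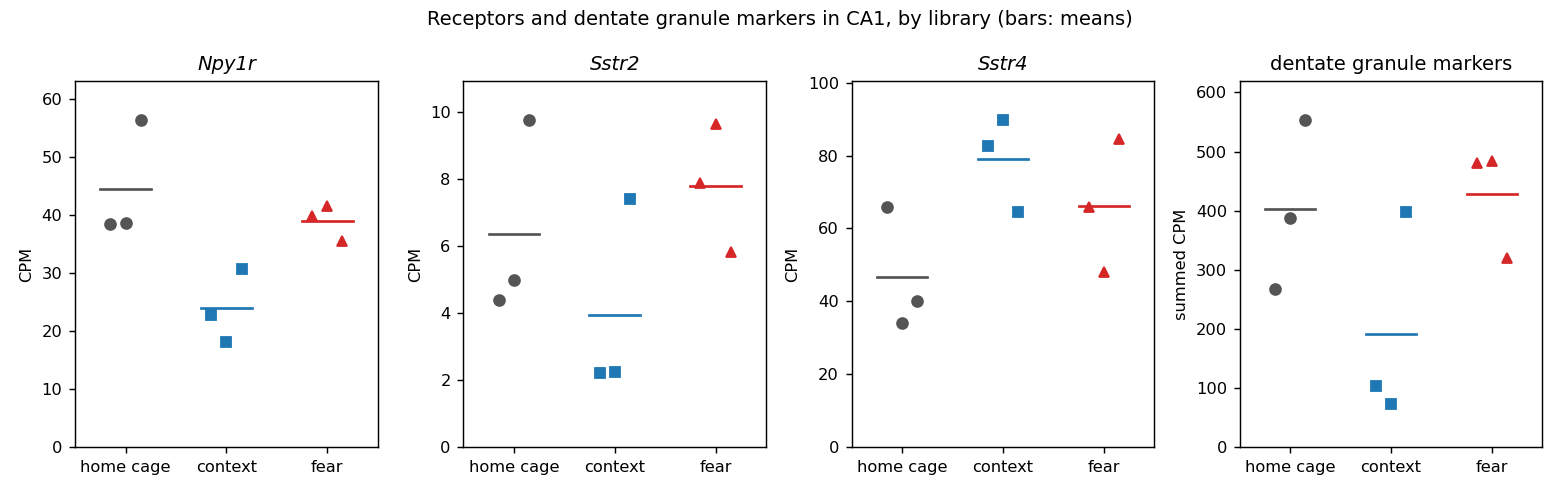
CPM of Npy1r, Sstr2 and Sstr4 and the summed CPM of 6 dentate granule markers (vertical axes, from 0) in the 9 CA1 libraries by condition. Points are libraries in replicate order and bars are group means of 3. The context libraries at 72.4 and 103 in the markers hold 18.1 and 22.8 of Npy1r, and home cage 3, at 553, holds 56.4.

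Oxtr, low in CA1, had 1.75, 1.40 and 1.73 CPM in the home cage, 1.33, 1.02 and 0.792 after context and 1.59, 3.20 and 3.55 after fear. Every context library lay below every other library, and fear against context gave 1.39 ± 0.39 (adjusted p = 0.846), or 1.38 without context 2 and home cage 2 (adjusted p = 0.989). Groups without overlap were seen for Npy1r and Oxtr between context and home cage (24.8% of genes) and between fear and context (15.1%), and for Sstr1 between fear and home cage (24.7%). Same-numbered fear and home cage libraries of CA1 deviated together, and 715 genes, blocked on that number, and none of the 10 receptors were called between them.

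In LEC, edgeR called no gene in any of the 3 comparisons, with 403 genes at an unadjusted p under 0.05 between context and home cage, 1242 between fear and home cage and 207 between fear and context. Sstr2 had 19.7, 17.6 and 13.8 CPM in the home cage, 16.4, 28.7 and 21.0 after context and 31.3, 26.9 and 25.9 after fear, with every fear library above every home cage library (0.69 ± 0.20, adjusted p = 0.527). It was the only receptor without overlap in that comparison (11.1% of genes). Npy1r and Npy2r were lower in every context library than in every home cage library (6.88% of genes), at -0.22 ± 0.12 and -0.52 ± 0.45. Npy1r and Sstr4 were higher in every fear library than in every context library (9.21%), at 0.15 ± 0.12 and 0.20 ± 0.21. For Sstr4 the margin was slight, with 15.9 CPM in both context 2 and fear 2 after rounding.

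The fear libraries of LEC differed widely from each other for several genes of this system. Npy2r had 15.1, 7.64 and 43.6 CPM after fear, against 26.2 to 30.1 in the home cage. Trhr had 25.6, 22.9 and 51.2, and the ligand gene Trh had 8.32, 0.315 and 58.9, so that fear 3 was the highest and fear 2 the lowest in each. Sstr1 (10.7, 7.82 and 17.8) and Oxtr (22.8, 18.6 and 37.4) had the same order, and Nmbr the reverse one (7.02, 10.2 and 3.82). The differences of Trhr (-0.53 ± 0.31, adjusted p = 0.735) and Npy2r (-0.39 ± 0.45, adjusted p = 0.900) after fear did not exceed this spread.

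**Figure D5:**
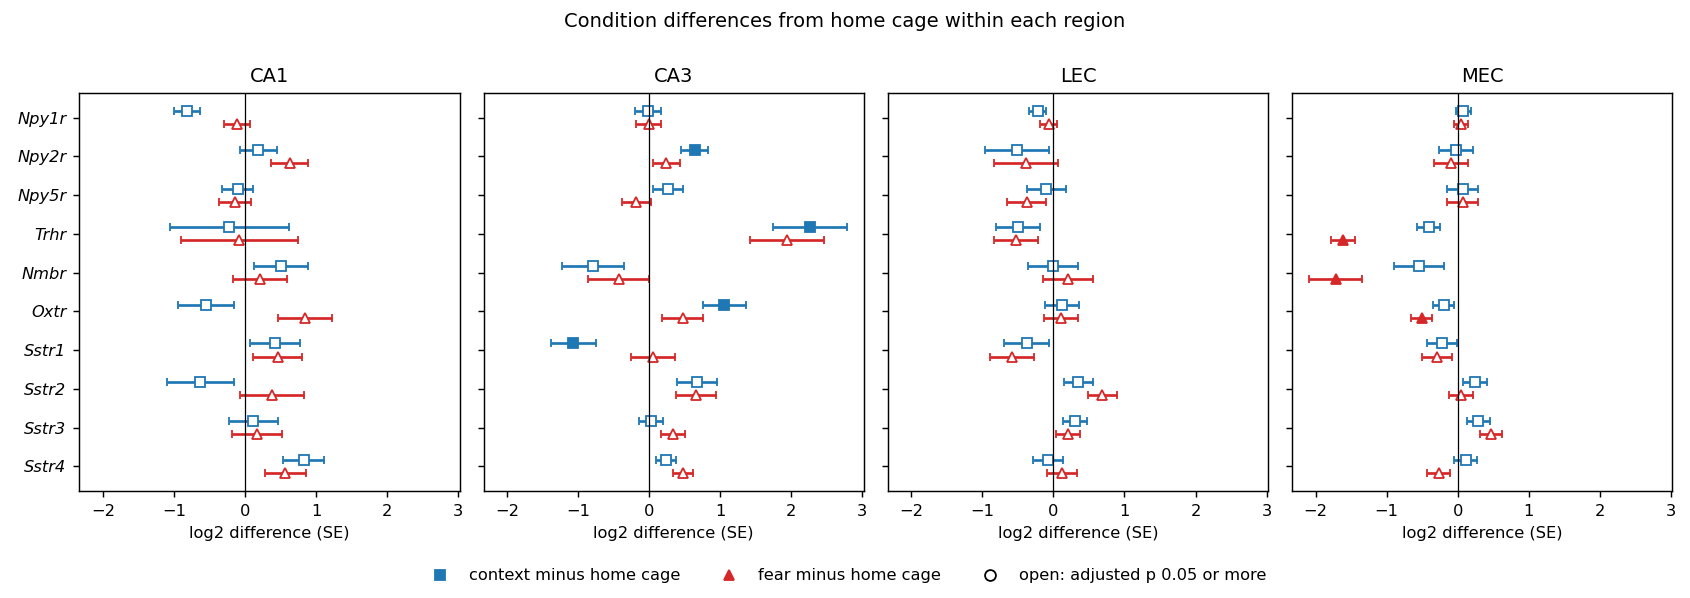
Log2 difference from home cage (horizontal axis, with SE) for the 10 receptors in each region, with squares for context and triangles for fear. Filled symbols passed an adjusted p of 0.05: 4 for context in CA3 and 3 for fear in MEC, with no filled symbol in CA1 or LEC.

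The difference between regions in the response of a receptor was tested itself. Of 12 such contrasts, a receptor was called only in fear against home cage, MEC minus CA3, where 1 of 10 receptors and 0.0224% of all genes passed. This was Trhr, lower after fear in MEC and with a higher value in CA3 (difference of log2 differences -3.57 ± 0.62, adjusted p = 0.0269). The call was lost in 9 of 15 alternatives, among them leaving out home cage 2 of all regions (adjusted p = 0.207). Nmbr in MEC minus LEC (-1.91 ± 0.54, adjusted p = 0.448) and Npy1r under context in CA3 minus CA1 (0.80 ± 0.22, adjusted p = 0.105) did not pass.

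Averaged over the 4 regions, Npy1r was slightly lower after context than in the home cage (-0.23 ± 0.08, adjusted p = 0.0290). It was the only one of 10 receptors called while 22.1% of genes were. The fall was not alike in the regions: the log2 differences of Npy1r were -0.82 in CA1, -0.22 in LEC, -0.02 in CA3 and 0.08 in MEC. Sstr2 was the only receptor called for fear against home cage (0.47 ± 0.16, or 1.39-fold, adjusted p = 0.0341), where 24.1% of genes were called, and its log2 differences within the regions were 0.69 in LEC, 0.66 in CA3, 0.38 in CA1 and 0.05 in MEC. No receptor was called for fear against context (3.37%). Npy1r lost its call without context 1, home cage 2 or home cage 3 of all regions (adjusted p up to 0.141). Sstr2 lost it without the filter on low counts (adjusted p = 0.0666) and without any of the fear replicates, home cage 1 or home cage 2 (adjusted p up to 0.151). Since regions may share mice, these p-values may be too small.

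The genes whose 12 group means of log2 CPM were most like those of each receptor were searched among 12742 genes, as a description that mainly carries the differences between regions. Trhr was closest to Cadm1 (Pearson r 0.995) and Prkg2 (0.985), Npy2r to Acot2 (0.976) and Kcng2 (0.971), and Npy1r to Ptchd4 (0.965) and Sncaip (0.957). Sstr2 was closest to Inpp4b (0.987) and Lingo2 (0.978), Sstr4 to Atp2b1 (0.983) and Gpr161 (0.981), Sstr1 to Tctn2 (0.978) and Cdk18 (0.976), and Sstr3 to Ap2a2 (0.945) and Ly6e (0.939). Oxtr was closest to Celf4 and Rims1 (0.983 each), Npy5r to Ino80c (0.977) and Gm14403 (0.975), and Nmbr to Slc7a3 (0.955) and Lyrm9 (0.947).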

How the data were processed

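The authors deposited unnormalized read counts of genes in 36 libraries, made with Trimmomatic 0.33, STAR 2.7.10b (mm10) and HTSeq 2.0.1, per the submitters' processing notes, from stranded polyA libraries, per the labels' protocols. Annotation release and strand setting: not given in the sources used here. Symbols, exon lengths and positions came from GENCODE M21 (GRCm38); 35533 of 37315 identifiers matched a symbol, and lines without a gene numbered 0. Totals ran from 21871412 to 68974340 counts.

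The members and the gene lists were chosen with earlier results of these data known. Named genes were the 10 receptors, up to 4 called members of smallest p from each other list per comparison, and the 2 genes most like each receptor (mean of at least 1 log2 CPM over the 36 libraries). Counts were filtered with filterByExpr, scaled with TMM and fitted with edgeR 4.0.16 (robust quasi-likelihood, R 4.3.3), once per region over its 9 libraries (6 residual degrees of freedom) and once over all 36 (24 residual degrees of freedom). Adjusted p is Benjamini-Hochberg over all genes tested, and calls are at 0.05. CPM uses library totals. Log2 CPM for the similarity search used a prior count of 2. The procedure was tested on simulated data. Alternatives were DESeq2 1.42.0, its size factors, no filter, the replicate block, GC and length offsets (splines with 5 degrees of freedom), marker covariates, a fit of all libraries, and left-out libraries. The deviations of same-numbered libraries correlated above 0.1 in every pair for 2 of 12 condition comparisons, CA1 fear with home cage (0.30, 0.40, 0.23) and MEC context with home cage (0.60, 0.33, 0.76), and for 4 of 18 comparisons between regions; the numbers come from the sample titles. Replicates of each group differed by more than sampling noise.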

Additional observations from a re-analysis of the deposited data

Results flagged for a closer look

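Sstr3 in CA1 home cage 2 stood apart from the other libraries of its region, at 6.77 CPM against 15.2 to 23.5 CPM in the other 8. It was the only such library among 40 sets of 9 libraries examined (10 receptors in 4 regions), and chance alone sets a library apart by this criterion in about 1 in 20 sets. The same library lay at 1 end of the first principal component of CA1. It also held 13700 CPM of oligodendrocyte markers, against 3630 to 7340 CPM in the other CA1 libraries. Its CA1 pyramidal markers, at 561 CPM, were the lowest of the CA1 libraries. The cause of its low Sstr3 was not tested.

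The response of Trhr to fear differed between MEC and CA3, by a test of the difference itself (log2 -3.57 ± 0.62, adjusted p = 0.0269), out of 120 such tests of the receptors. In CA3 the level of Trhr was 0.141 to 1.83 CPM, and the adjusted p over the 15 alternatives ran from 6.17e-06 to 0.207.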

How the results depend on the processing

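No direction of a called receptor was reversed in any alternative run, and of 228 recomputed counts of called receptors (left-out libraries aside) 197 stayed within 1.5 times the value in the report. The counts that moved were these. Except where a total over all genes is given, the share of all genes called in the same run is not set beside them. They therefore do not show whether the receptors were called more often than other genes. With DESeq2, 2 receptors were called for context against home cage in CA1, 2 for fear against home cage and 1 for fear against context in CA3, and 1 for fear against context in MEC. DESeq2 also called 3 for the context response in CA3 minus CA1, 1 in LEC minus CA3 and 1 in MEC minus CA3, 1 for the fear response in LEC minus CA3, and, in the means of 4 regions, 2 for context against home cage and 1 for fear against context. The fit of all 36 libraries called 2 for context in CA1 and 1 for fear in CA3. Without the filter, 1 was called for context in CA1, 1 for fear against context in MEC, 0 for the fear response in MEC minus CA3 and 0 for the mean fear response.

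GC and length offsets called 1 for context in CA3 (Sstr4, which was not among the 4 called without them), 0 for the fear response in MEC minus CA3, 3 for the mean context response and 1 for mean fear against context. With the replicate block as well, they gave 1 for fear in CA3, 1 for fear against context in MEC, 0 for MEC minus CA3, and 3 and 1 for these 2 means. The replicate block alone gave 1 for fear against context in MEC (784 genes in all, against 0 without it), 2 for the mean context response and 2 for the mean fear response. It called 3 receptors for context in CA3 (1330 genes in all, against 2243 without it) and 4 for fear in MEC (3783 against 1559). In comparisons where same-numbered libraries did not deviate together, the number is only a name. Marker covariates gave 0 for context in CA3 and 0 for fear in MEC. Without both context 2 and home cage 2 of CA3, 0 remained for context there. The cause of these shifts was not tested.

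Leaving out libraries gave 0 to 2 receptors for context in CA1, 0 to 1 for fear in CA1, 0 to 4 for context and 0 to 1 for fear against context in CA3, 1 to 4 for fear and 0 to 2 for fear against context in MEC. It gave 6 to 7 for CA3 against CA1, 8 to 10 for LEC against CA1 and 3 to 5 for MEC against LEC, 0 to 4 for the context response in CA3 minus CA1, 0 to 1 in LEC minus CA3 and MEC minus CA3, 0 to 1 for the fear response in MEC minus CA3, and 0 to 2, 0 to 2 and 0 to 1 for the 3 means. Per kilobase levels of Nmbr rise when its longest transcript replaces the union of exons, from 2.17 to 4.38 in MEC. Trhr in CA1 and CA3 is limited by depth, with 4 to 45 counts a library in CA3. With 3 libraries a group, a receptor that missed the threshold is not shown to be unaltered.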
